A study of Mus musculus with 58 samples.

Results

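The 10 genes described here are the transcription factor Nfe2l2 (the gene for NRF2), its inhibitor Keap1, and 8 antioxidant genes that NRF2 is known to switch on, namely Nqo1, Gclc, Gclm, Hmox1, Txnrd1, Srxn1, Gsr and Slc7a11. They were taken by gene symbol from a table of exon read counts of 24537 genes, and all 10 were found in it. The table covered 58 whole livers of male C57BL6/J mice, with polyA RNA sequenced in read pairs of 75 bases per read. Old Myc ruxolitinib livers (n = 14), old Myc vehicle livers (n = 11), old mApple ruxolitinib livers (n = 9), old mApple vehicle livers (n = 8), young Myc ruxolitinib livers (n = 10) and young mApple vehicle livers (n = 6) made up the 6 groups. Myc livers came from mice given the virus AAV8-TBG-Myc, which carries the oncogene Myc, and mApple livers from mice given AAV8-TBG-mApple, which carries a red fluorescent protein in its place. TBG is a promoter active in hepatocytes, so the transgene was meant for these cells while the RNA came from the whole organ. Ruxolitinib blocks the JAK1 and JAK2 kinases and was dosed at 45 mg/kg by gavage, 2 times on each treatment day over 30 days with weekends left free, and vehicle mice were given the carrier without it. Mice of the first sequencing batch were all old, at 25 months, while the second batch held old mice of 24 months and all young mice, of 4 months. The labels give each liver its own library number, and each was taken as a separate sample, so p-values measure the spread between these livers.

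NRF2 is made continuously in cells and is destroyed continuously, because KEAP1 hands it to an enzyme complex that marks it for breakdown. Oxidants and many foreign chemicals modify KEAP1, NRF2 then escapes breakdown, and with a small MAF partner it binds short DNA stretches called antioxidant response elements beside its target genes. In liver the targets make and recycle glutathione and thioredoxin and help to clear drugs and reactive products, and much of the control acts on the NRF2 protein, which RNA counts do not show.

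The start regions of these genes are shown because they are where antioxidant response elements can lie. RefSeq's promoter windows on GRCm38.p6, 250 bases before to 50 after a transcript start, were at the counted transcript's start for 7 of the 10 genes, namely Nfe2l2, Keap1, Nqo1, Gclm, Txnrd1, Srxn1 and Slc7a11. The core of the element, TGACNNNGC, was searched on both strands and was found in the windows of 4 of the 7, Nfe2l2, Gclm, Txnrd1 and Srxn1, while 12.4% of all 32851 windows in the same table held it. The 4 stretches follow, read 5′ to 3′ on the gene's own strand, with the matching 9 letters in capitals and 10 bases on either side.
Nfe2l2, match on the gene's strand, first matching base at -240: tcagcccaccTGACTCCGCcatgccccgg
Gclm, match on the opposite strand, first matching base at -134: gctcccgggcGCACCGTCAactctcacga
Txnrd1, match on the opposite strand, first matching base at -92: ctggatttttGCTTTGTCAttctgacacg
Srxn1, match on the opposite strand, first matching base at 28: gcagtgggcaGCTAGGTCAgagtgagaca
The letters CACGTG, the canonical E-box that MYC binds, were in none of the 7 windows and in 7.15% of all windows. The 250 bases before the start are printed below for Nqo1 (GRCm38.p6, chr8:107403206-107403455, minus strand) and Srxn1 (chr2:152105274-152105523, plus strand), the 2 members with the largest difference between old and young Myc ruxolitinib livers in the results that follow. Neither stretch holds a match to TGACNNNGC or CACGTG, so all letters are lower case, and no match says only that these letters are not in this window.
Nqo1: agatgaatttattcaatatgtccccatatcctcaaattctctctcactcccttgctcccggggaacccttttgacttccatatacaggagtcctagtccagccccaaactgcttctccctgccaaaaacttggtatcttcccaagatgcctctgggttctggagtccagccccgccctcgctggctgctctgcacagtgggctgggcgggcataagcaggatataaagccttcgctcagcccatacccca
Srxn1: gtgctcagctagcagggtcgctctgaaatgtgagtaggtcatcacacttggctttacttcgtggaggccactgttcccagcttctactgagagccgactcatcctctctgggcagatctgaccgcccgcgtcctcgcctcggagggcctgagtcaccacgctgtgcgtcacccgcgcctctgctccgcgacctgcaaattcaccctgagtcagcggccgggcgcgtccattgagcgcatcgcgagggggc

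Total counts ran from 10676097 to 40982340 per library, and the liver product Alb took a median of 9.46% of them. Counts scaled to library size are given as CPM, and the 7 hepatocyte markers in the table, of 8 listed, had summed levels from 55158 to 217764 CPM. Myc itself had median levels of 32.6 CPM in old Myc ruxolitinib, 37.6 CPM in old Myc vehicle and 51.0 CPM in young Myc ruxolitinib livers, against 7.59 CPM in old mApple ruxolitinib, 15.5 CPM in old mApple vehicle and 8.37 CPM in young mApple vehicle livers. One library labelled old Myc vehicle, library 870, had only 6.62 CPM of Myc, and no member's call changed without it. In the first batch, libraries 860 and 861, both old Myc ruxolitinib, stood apart with a summed level of leukocyte markers above that of all other livers. Several values that rest on them are given with and without them. Others, such as the batch difference and the nearest genes of Hmox1, are given only with them. Library 864, an old mApple ruxolitinib liver of the first batch, had the lowest share of Alb, 3.22%, a summed hepatocyte level of 58408 CPM, and neutrophil and bile duct sums of 448 and 893 CPM that were the highest of all livers. Library 865 of the same group had the next highest bile duct sum, 445 CPM, and a stellate and fibroblast sum of 1018 CPM, which only library 861 exceeded. Whole-liver RNA cannot tell fewer cells of a type from less RNA per cell, which holds for every level below.

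Compared per length of transcript, as CPM per kilobase (RPKM), the members spanned a wide range over the 58 livers. Gclc and Gclm, the catalytic and modifier subunits of the enzyme that limits glutathione synthesis, were the most abundant, at 135 ± 38.2 RPKM and 76.9 ± 15.3 RPKM (SD, n = 58). Txnrd1, the cytosolic thioredoxin reductase, at 48.8 ± 8.83 RPKM and Nfe2l2 at 48.7 ± 22.2 RPKM came next and differed by far less than their spread. Below them stood Gsr, the glutathione reductase, at 33.6 ± 3.91 RPKM, Hmox1, the inducible haem oxygenase, at 27.4 ± 43.2 RPKM, and Srxn1, the sulfiredoxin that repairs oxidised peroxiredoxins, at 21.3 ± 14.6 RPKM, and these neighbours overlapped in their spread. Keap1 followed at 12.53 ± 1.71 RPKM and Nqo1, a quinone reductase, at 7.85 ± 4.71 RPKM. Slc7a11, the cystine importer that feeds glutathione synthesis, was close to silent at 0.122 ± 0.117 RPKM and did not pass the filter on low counts in the comparison of old with young Myc ruxolitinib livers or in that of young livers. The SD of Hmox1 exceeded its mean, but without libraries 860 and 861 Hmox1 had 19.8 ± 13.6 RPKM (SD, n = 56), an SD below the mean. Gsr and Keap1 varied least relative to their means, with and without these 2 libraries.

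**Figure D1:**
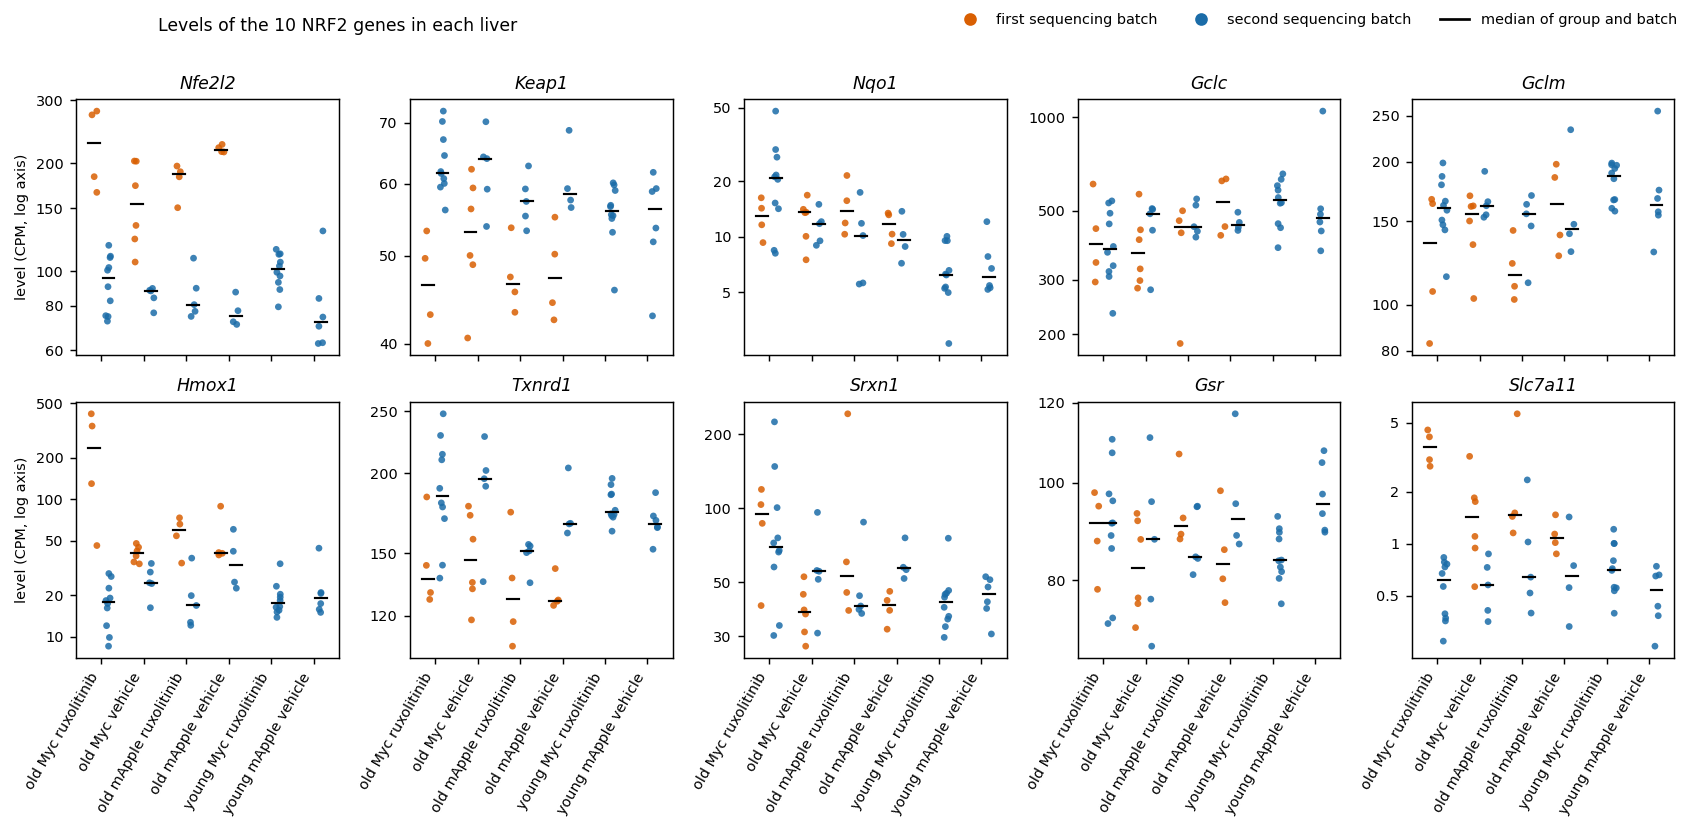
Levels in CPM (log axis) of the 10 genes in each of the 58 livers, by group, with points coloured by sequencing batch and bars at the median of each group within each batch. Nfe2l2 separates by batch within each old group (over all old livers 106 to 280 CPM in the first and 70.9 to 118 CPM in the second, which overlap), and Hmox1 is highest in old Myc ruxolitinib libraries 860 and 861. Within the second batch, Nqo1 is highest in old Myc ruxolitinib livers.

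Several members differed between sequencing batches among the 42 old livers, and within these livers batch cannot be told apart from age of 25 against 24 months. Nfe2l2 had 106 to 280 CPM in the first batch, against 70.9 to 118 CPM in the second. Within each old group the first-batch livers were all above the second-batch livers, and the difference was 1.19 ± 0.08 on the log2 scale (SE, 2.27-fold, edgeR adjusted p = 1.63e-14). Hmox1 was also higher in the first batch, by 1.85 ± 0.29 (3.61-fold, adjusted p = 8.83e-07), as was Slc7a11, by 1.66 ± 0.25 (adjusted p = 3.11e-07). Keap1 was lower in the first batch by a log2 difference of -0.30 ± 0.05 and Txnrd1 by -0.31 ± 0.07, while the other 5 members did not pass the threshold. Over all 14046 genes tested, 67.2% passed between batches. All comparisons that span both batches therefore carry a batch term, and all comparisons of age use the second batch alone.

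Age was compared in Myc livers on ruxolitinib, 10 old against 10 young livers of the second batch. Nqo1, Srxn1 and Keap1 were higher and Gclc was lower in old livers, which makes 4 of the 9 members tested (3 higher, 1 lower). The background was high: 33.7% of the 12760 genes tested passed an adjusted p of 0.05 in this comparison, 18.1% higher and 15.6% lower, and the member count is to be read against these shares. The median log2 change was 0.11 over the 9 members and 0.02 over all genes. Myc was lower in these old livers than in the young ones, by a log2 difference of -0.70 ± 0.10 (adjusted p = 3.33e-05), and the part of that difference in the member values was not tested.

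Nqo1, which reduces quinones to less reactive products, had a lowest, median and highest level of 8.14, 20.8 and 47.8 CPM in old Myc ruxolitinib livers, against 2.65, 6.25 and 10.1 CPM in young ones. In 8 of the 10 old livers Nqo1 lay above the highest young liver, and libraries 1155 and 1158 lay within the young range. The difference was 1.71 ± 0.28 on the log2 scale, or 3.28-fold (edgeR's quasi-likelihood test, adjusted p = 0.000134). Srxn1 had 30.3, 69.7 and 225 CPM in old Myc ruxolitinib livers and 29.7, 41.4 and 75.5 CPM in young ones. The groups overlapped over most of the young range, and 4 old livers were above it, led by libraries 1150 and 1154. Its difference was 1.06 ± 0.29, or 2.08-fold (adjusted p = 0.00743).

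Keap1, the sensor that holds NRF2 down, differed little in size but with small spread, at 56.1, 61.7 and 72.1 CPM in old Myc ruxolitinib livers against 45.8, 56.0 and 60.1 CPM in young ones. All but 3 old livers were above the highest young liver, and the difference was 0.21 ± 0.05 (1.16-fold, adjusted p = 0.00522). Reads of Keap1 cannot be told apart from those of Gm16754, an antisense gene that overlaps it, since no strand setting was recorded for the counting. Gclc had 234, 376 and 538 CPM in old Myc ruxolitinib livers and 380, 541 and 657 CPM in young ones. The 5 lowest livers were all old, the rest overlapped, and the difference was -0.41 ± 0.14 (0.751-fold, adjusted p = 0.0225). All 4 calls stood when any single library was left out.

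The other members tested in Myc ruxolitinib livers stayed short of the threshold. Gclm had a log2 difference of -0.15 ± 0.08 (adjusted p = 0.155) and Gsr of 0.13 ± 0.07 (adjusted p = 0.147). Nfe2l2 at -0.08 ± 0.09, Hmox1 at -0.07 ± 0.20 and Txnrd1 at 0.11 ± 0.09 had intervals that include 0. The RNA of NRF2 itself thus had a 95% interval from -0.26 to 0.10 in the comparison where Nqo1 and Srxn1 rose. Markers of other cells moved in the same comparison: of those tested, 3 of 5 leukocyte, 3 of 9 Kupffer cell and macrophage and 2 of 2 neutrophil markers were higher in old livers, and 3 of 5 endothelial markers were lower. Of the 7 hepatocyte markers 2 were higher and 1 lower, 1 of 4 bile duct markers was higher and 1 of 5 stellate and fibroblast markers was lower. Summed leukocyte markers ran from 113 to 217 CPM in old Myc ruxolitinib livers and from 137 to 167 CPM in young ones, and their part in the member values was not tested.

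**Figure D2:**
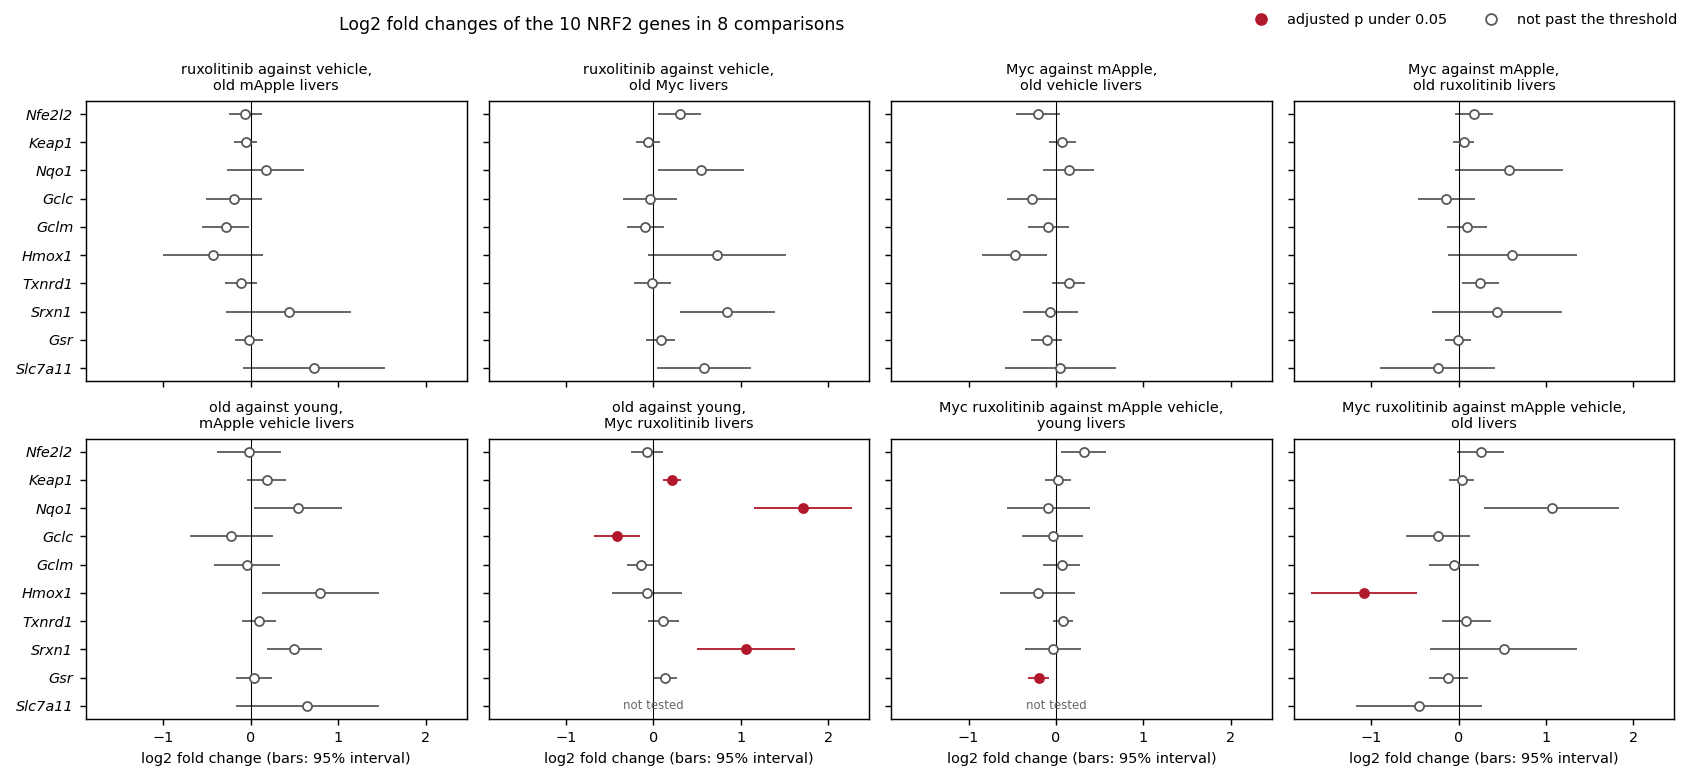
Log2 differences with 95% intervals of the 10 genes in 8 comparisons, the group named first over the group named second, with values past an adjusted p of 0.05 in red. The red points are Keap1, Nqo1, Srxn1 and Gclc for old against young Myc ruxolitinib livers, Gsr for Myc ruxolitinib against mApple vehicle in young livers, and Hmox1 for the same comparison in old livers.

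In mApple vehicle livers, 4 old livers were set against 6 young ones, and 0 of the 10 members passed the threshold in edgeR, beside 1.1% of the 13155 genes tested (0.859% higher and 0.243% lower). At an unadjusted p under 0.05 there were 2 members, and 0 passed by DESeq2 and 2 by limma voom. Srxn1 had 51.7, 56.2, 57.5 and 75.7 CPM in the old mApple vehicle livers, against a lowest, median and highest of 30.7, 44.7 and 52.6 CPM in the young ones. All but 1 old liver, library 1136, were above the highest young liver, and the log2 difference was 0.50 ± 0.16 (adjusted p = 0.139). Hmox1 had 22.5, 24.9, 41.8 and 60.3 CPM in old mApple vehicle livers and 15.01, 19.01 and 44.0 CPM in young ones, with a difference of 0.80 ± 0.34 (adjusted p = 0.252). The highest young liver, library 1129, overlapped the old range, and without it the difference was 1.10 (adjusted p = 0.0450). Nqo1 had 7.19, 8.86, 10.3 and 13.7 CPM in old mApple vehicle livers and 5.19, 6.10 and 12.1 CPM in young ones, with a difference of 0.54 ± 0.26 (adjusted p = 0.294). The 3 neutrophil markers tested were all higher in old mApple vehicle livers, and of 5 leukocyte markers 1 was (median log2 difference 0.93 over the 5). None of the 9 Kupffer cell and macrophage markers passed, with a median of 0.87 and summed levels from 234 to 649 CPM in old mApple vehicle livers and from 174 to 448 CPM in young ones. The part of these lists in the member values was not tested.

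Whether the difference between Myc ruxolitinib and mApple vehicle livers itself changed with age was tested over these 4 groups, and 0 of the 10 members passed in edgeR, beside 0.287% of 13609 genes (0.103% higher and 0.184% lower). At an unadjusted p under 0.05 there were 3 members, and 0 passed by DESeq2 and 1, Slc7a11, by limma voom. The estimates in old minus young livers were 1.15 ± 0.47 for Nqo1 (adjusted p = 0.253), 0.54 ± 0.44 for Srxn1 (adjusted p = 0.613), -0.87 ± 0.40 for Hmox1 (adjusted p = 0.322) and -1.004 ± 0.46 for Slc7a11 (adjusted p = 0.316). The age difference of Nqo1 was therefore past the threshold in one setting and short of it in the other, without a difference between the settings being shown.

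The 48 other genes of the NRF2 pathway listed for this work were more often higher than lower in old Myc ruxolitinib livers, with 18 higher and 4 lower of the 46 tested, against the background of 18.1% higher and 15.6% lower over all genes. Their median log2 difference was 0.15. These genes were listed with earlier results of these data known, so the counts describe the list and do not test it. The 4 with the smallest p were Mafk, a small MAF partner of NRF2, at 0.74 ± 0.10 (adjusted p = 1.13e-05), the glutathione transferases Gstm3, at 2.47 ± 0.36 (adjusted p = 3.67e-05), and Gstm2, at 1.33 ± 0.23 (adjusted p = 0.000184), and Cbr3, a carbonyl reductase, at 2.89 ± 0.52 (adjusted p = 0.000279). Mafk had 18.5, 21.6 and 28.8 CPM in old livers and 9.62, 13.4 and 16.5 CPM in young ones, without overlap. Mafk was named for its small p, and how many of all genes had no overlap was not counted. Gstm3 had 45.7, 434 and 781 CPM in old Myc ruxolitinib livers and 53.5, 70.5 and 125 CPM in young ones, so that the lowest old liver fell below the young range. Cbr3 had 0.636, 4.36 and 26.5 CPM in old livers and 0.636, 0.859 and 1.35 CPM in young ones, and the young livers all lay in the lower part of the old range.

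By role, the other pathway genes split as follows in old against young Myc ruxolitinib livers. Of the regulators, Mafk and Sqstm1, a receptor that draws KEAP1 into autophagy, were higher (Sqstm1 by 0.22 ± 0.08), and Cul3, the scaffold of the complex that KEAP1 serves, was lower by a log2 difference of -0.20 ± 0.05. The call for Sqstm1 was lost on leaving out any 1 of 13 of the 20 libraries (adjusted p up to 0.0814). Among the conjugation genes, 7 were higher and only Gstp1 was lower, and these 8 were named after their values were seen where they fall outside the rule: Gsta1 2.14 ± 0.39, Gsta2 1.3 ± 0.26, Gstm1 1.02 ± 0.24, Gstm4 0.65 ± 0.17, Gsta4 0.48 ± 0.14 and Gstp1 -0.72 ± 0.24, beside Gstm2 and Gstm3. These transferases have near-identical copies, so the counting may have split reads among them and the values of single genes are uncertain. Of the carbonyl and quinone reduction genes, Cbr1, Cbr3, Ptgr1 and Ces1g were higher, by 0.53 ± 0.14, 2.89 ± 0.52, 0.59 ± 0.14 and 0.47 ± 0.13.

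The haem handling genes Blvra and Blvrb, the biliverdin reductases that act after haem oxygenase, were higher in old Myc ruxolitinib livers by 0.30 ± 0.09 and 0.36 ± 0.11, and the haem transporter Slc48a1 by 0.44 ± 0.09. Txn1, the thioredoxin that Txnrd1 reduces, was higher by 0.35 ± 0.06, and Gss, the second enzyme of glutathione synthesis, by 0.30 ± 0.08. Of the genes that supply NADPH, malic enzyme Me1 was lower by -0.67 ± 0.20 and Idh1 by -0.21 ± 0.06 on the log2 scale. None of the efflux pumps passed. In mApple vehicle livers 0 of the 46 tested pathway genes passed between old and young in edgeR, with a median of 0.11, while 9 had an unadjusted p under 0.05, 3 passed by DESeq2 and 7 by limma voom.

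**Figure D3:**
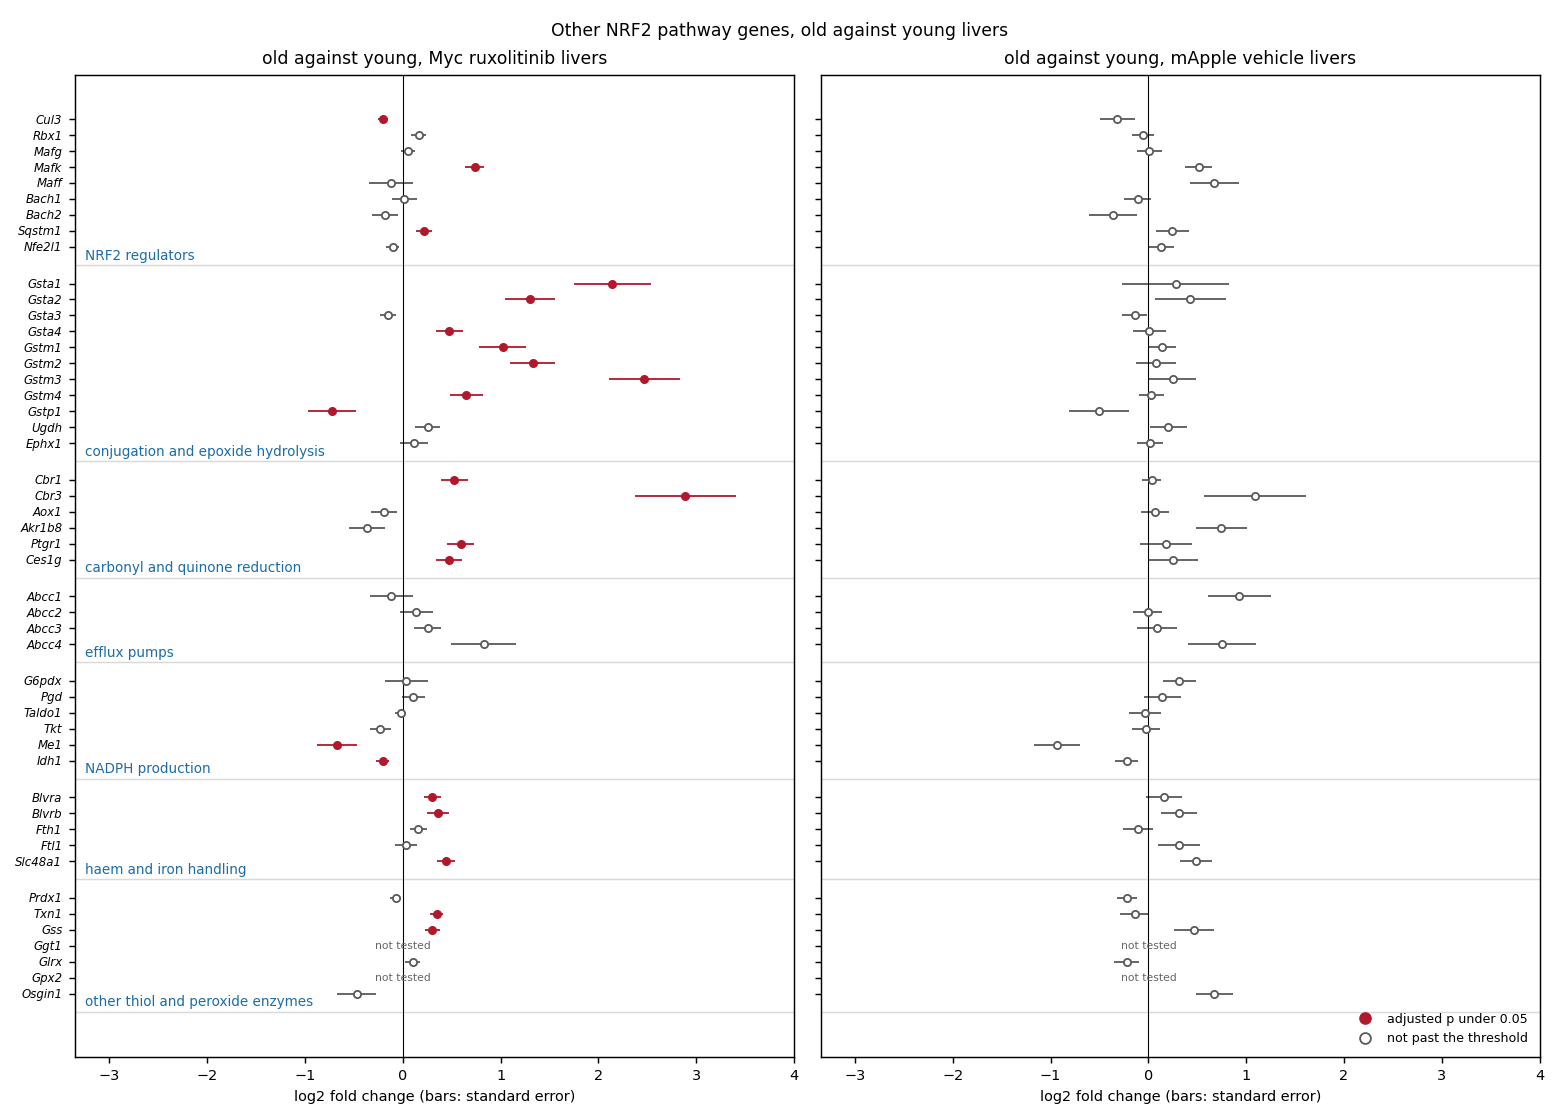
Log2 differences (old over young, bars ± SE) of the 48 other pathway genes, arranged by role, in Myc ruxolitinib livers and in mApple vehicle livers, where tested. In Myc ruxolitinib livers 18 are past the threshold above 0 and 4 below it, with Cbr3, Gstm3 and Gsta1 farthest to the right, and in mApple vehicle livers none is past it.

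Ruxolitinib against vehicle in old mApple livers (9 against 8) moved 0 members past the threshold by edgeR, DESeq2 or limma voom, with 1 at an unadjusted p under 0.05. Of the 13554 genes tested 0.391% passed, 0.00738% higher and 0.384% lower. Hmox1 had a lowest, median and highest level of 12.1, 34.3 and 73.2 CPM in old mApple ruxolitinib livers and of 22.5, 40.6 and 88.8 CPM in old mApple vehicle livers, with wide overlap and a log2 difference of -0.43 ± 0.29 (adjusted p = 0.633). Gclm, at -0.29 ± 0.13 (adjusted p = 0.499), and Slc7a11, at 0.72 ± 0.41 (adjusted p = 0.573), were the others with the smallest unadjusted p. Slc7a11 was highest of this group in library 865, a ruxolitinib liver with 5.61 CPM, and differed by 0.30 without libraries 860, 861, 864 and 865 (adjusted p = 0.860). Library 865 also had the highest Srxn1 of all livers, at 243 CPM. Srxn1 differed by 0.43 ± 0.36 (adjusted p = 0.705), and by -0.03 without libraries 860, 861, 864 and 865 (adjusted p = 0.983), of which 864 and 865 are old mApple ruxolitinib livers. In 2 members the groups stood apart within a batch, and how many of all genes did so was not counted. Nfe2l2 in the first batch had 150 to 197 CPM in the 4 ruxolitinib livers, below each of the 4 vehicle livers, at 215 to 226 CPM. In the second batch it had 74.7 to 109 CPM in ruxolitinib livers and 70.9 to 87.3 CPM in vehicle livers, and the fit over both batches gave -0.06 ± 0.10 (adjusted p = 0.855). In the second batch Txnrd1 was lower in each of the 5 ruxolitinib livers, at 135 to 155 CPM, than in each of the 4 vehicle livers, at 161 to 204 CPM, while the fit over both batches gave -0.11 ± 0.09 (adjusted p = 0.703).

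In old Myc livers (14 on ruxolitinib against 11 on vehicle) 0 members passed by edgeR, DESeq2 or limma voom, with 4 at an unadjusted p under 0.05. Of the 13749 genes tested 0.545% passed, 0.0436% higher and 0.502% lower. Srxn1 had 30.3, 74.0 and 225 CPM in old Myc ruxolitinib livers and 27.4, 44.6 and 96.2 CPM in old Myc vehicle livers, overlapping, with a log2 difference of 0.84 ± 0.28 (1.80-fold, adjusted p = 0.218). Nfe2l2 differed by 0.30 ± 0.12 (adjusted p = 0.299), Nqo1 by 0.54 ± 0.25 (adjusted p = 0.338) and Slc7a11 by 0.58 ± 0.27 (adjusted p = 0.346). In the second batch Nqo1 was above every vehicle liver in 7 of 10 ruxolitinib livers and below every one in libraries 1155 and 1158. In the first batch all 4 ruxolitinib livers lay within the range of the 6 vehicle livers, and the log2 difference was 0.04 there (adjusted p = 0.935), against 0.90 in the second batch alone (adjusted p = 0.427).

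Hmox1, which opens the haem ring and is also strongly expressed by tissue macrophages, had differences of opposite sign in the 2 batches. In the first batch it had 46.0, 130, 340 and 418 CPM in old Myc ruxolitinib livers, against 33.8, 40.3 and 47.6 CPM (lowest, median and highest of 6) in old Myc vehicle livers. Libraries 868, 860 and 861 were above every vehicle liver and library 869 was within their range. In the second batch it had 8.53, 17.9 and 28.8 CPM in old Myc ruxolitinib livers and 16.2, 24.7 and 34.1 CPM in old Myc vehicle livers, and 4 of the 10 ruxolitinib livers lay below the vehicle range. The log2 difference was 2.54 in the first batch alone (adjusted p = 0.0259), -0.51 in the second alone (adjusted p = 0.527), 0.72 ± 0.40 over both (adjusted p = 0.414) and 0.04 without libraries 860, 861, 864 and 865 (adjusted p = 0.993). Srxn1 also passed in the first batch alone, at 1.18 (adjusted p = 0.0314), and had 0.60 in the second (adjusted p = 0.636).

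Beside the Hmox1 values, the summed level of 5 leukocyte markers in the first batch ran from 234 to 1597 CPM in old Myc ruxolitinib livers and from 186 to 274 CPM in old Myc vehicle livers. The summed 9 Kupffer cell and macrophage markers ran from 414 to 4597 CPM in the ruxolitinib livers and from 221 to 539 CPM in the vehicle livers, with no marker of either list at 0 in any of them. In the second batch the leukocyte sum was 113 to 217 CPM in old Myc ruxolitinib livers and 154 to 234 CPM in old Myc vehicle livers. The part of these cells in the Hmox1 values was not tested. The difference between the ruxolitinib responses of Myc and mApple livers passed for 0 members (2 at an unadjusted p under 0.05) and for 0 of 14046 genes (0%; edgeR, with 735 at an unadjusted p under 0.05, and 0 by DESeq2 or limma voom). For Hmox1 it was 1.37 ± 0.58 (adjusted p = 0.816), or 0.57 without libraries 860, 861, 864 and 865 (adjusted p = 0.951), and for Nfe2l2 0.38 ± 0.17 (adjusted p = 0.816). Of the 46 other pathway genes tested 0 passed in edgeR on the drug in old mApple livers (6 at an unadjusted p under 0.05, 0 by DESeq2 or limma voom) and 0 in old Myc livers (10 at an unadjusted p under 0.05, 3 by DESeq2, 0 by limma voom).

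Myc against mApple was compared in old livers with the drug held the same. In vehicle livers (11 Myc against 8 mApple) 0 members passed by edgeR, DESeq2 or limma voom (1 at an unadjusted p under 0.05), while 18.8% of 13547 genes did and Myc rose by 1.70 ± 0.39 on the log2 scale. Hmox1 had 16.2, 34.1 and 47.6 CPM in old Myc vehicle livers and 22.5, 40.6 and 88.8 CPM in old mApple vehicle livers, with a difference of -0.47 ± 0.19 (adjusted p = 0.0893), which became -0.55 (adjusted p = 0.0483) without library 1138. Gclc differed by -0.28 ± 0.14 (adjusted p = 0.184) and Nfe2l2 by -0.20 ± 0.13 (adjusted p = 0.278). In the first batch Nfe2l2 was lower in each of 6 Myc vehicle livers, at 106 to 203 CPM, than in each of 4 mApple vehicle livers, at 215 to 226 CPM. How many of all genes stood apart in this way was not counted. In the second batch it was 76.4 to 89.4 CPM in Myc vehicle livers and 70.9 to 87.3 CPM in mApple vehicle livers, which overlapped.

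In ruxolitinib livers (14 Myc against 9 mApple) again 0 members passed by the same 3 tools (1 at an unadjusted p under 0.05), beside 14.4% of 14010 genes and a rise of Myc by 2.54 ± 0.24. Txnrd1 had 127, 179 and 248 CPM in old Myc ruxolitinib livers and 108, 150 and 174 CPM in old mApple ruxolitinib livers, overlapping, with a difference of 0.25 ± 0.11 (adjusted p = 0.126). Without library 865, an mApple ruxolitinib liver, the difference was 0.31 (adjusted p = 0.04998, just inside the threshold). Nqo1 differed by 0.58 ± 0.32 (adjusted p = 0.228) and Hmox1 by 0.62 ± 0.38 (adjusted p = 0.285), or by 0.06 without libraries 860, 861, 864 and 865 (adjusted p = 0.914). For Nqo1, 6 of 10 Myc ruxolitinib livers of the second batch were above every mApple ruxolitinib liver. In the first batch 0 of 4 were above them and 1 was below them all. Because the ruxolitinib livers of each virus and the vehicle livers of each virus enter more than one of these comparisons, their values are not independent of each other.

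The other pathway genes showed few calls between Myc and mApple. In old vehicle livers 2 were higher and 5 lower of 46 tested, against 10.8% higher and 8.01% lower over all genes. Cbr3 was higher by 1.43 ± 0.37 (adjusted p = 0.0111) and Ptgr1, a prostaglandin reductase, by 0.52 ± 0.16 (adjusted p = 0.0265). Me1 (-0.68 ± 0.19), Aox1, an aldehyde oxidase (-0.45 ± 0.13), Akr1b8, an aldo-keto reductase (-0.58 ± 0.18), Fth1, the ferritin heavy chain (-0.29 ± 0.09) and Cul3 (-0.19 ± 0.06) were lower. Of these 7, Cbr3 and Me1 stayed past the threshold whichever library was left out. In old ruxolitinib livers 1 of 47 passed, against 8.4% higher and 5.96% lower over all genes: Slc48a1 was higher by 0.41 ± 0.14 (adjusted p = 0.0473), a call that was lost without any 1 of 16 of the 23 libraries (adjusted p up to 0.0897). Beside these calls, 4 of 5 endothelial and 2 of 7 hepatocyte markers were lower in old Myc vehicle livers than in old mApple vehicle livers. On ruxolitinib 2 of 5 endothelial, 1 of 7 hepatocyte and 1 of 5 bile duct markers were lower in old Myc livers, and the part of these markers was not tested.

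Myc and ruxolitinib together were compared with mApple and vehicle in each age, and here the virus and the drug cannot be told apart. In young livers (10 against 6) 1 of 9 members tested passed, beside 27.5% of 12808 genes. Gsr, which regenerates reduced glutathione, had 75.8, 83.7 and 92.6 CPM in young Myc ruxolitinib livers and 89.3, 95.3 and 108 CPM in young mApple vehicle livers. In 8 of 10 Myc ruxolitinib livers it was below every vehicle liver, and the difference was -0.20 ± 0.06 (0.872-fold, adjusted p = 0.0219). The call was lost without library 1130 (-0.16, adjusted p = 0.0672) or library 1131 (-0.17, adjusted p = 0.0609). In the same comparison 6 of 7 hepatocyte markers were lower (median log2 difference -0.39). Their summed level was 80743 to 109368 CPM in young Myc ruxolitinib livers and 127179 to 213850 CPM in young mApple vehicle livers, without overlap, and its part in the Gsr value was not tested. Nfe2l2 had 79.4, 101 and 115 CPM in young Myc ruxolitinib livers and 62.7, 72.2 and 129 CPM in young mApple vehicle livers, with a difference of 0.32 ± 0.13 (adjusted p = 0.0784).

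One young mApple vehicle liver, library 1134, decided several of these values. It had the highest Nfe2l2 (129 CPM), Gclc (1046 CPM) and Gclm (255 CPM) of its group, and the highest Gclc and Gclm of all 58 livers. Without it Nfe2l2 differed by 0.50 (adjusted p = 0.000350) and Gclm by 0.20 (adjusted p = 0.0481), in place of 0.06 ± 0.11 (adjusted p = 0.702) with it. Of the other pathway genes 8 were higher and 2 lower of 46 tested in young livers, beside 13.5% higher and 14% lower over all genes. The 4 with the smallest p were Tkt, the transketolase of the pentose phosphate pathway, at 0.66 ± 0.08 (adjusted p = 8.53e-06), Abcc3, an efflux pump, at 0.60 ± 0.11 (adjusted p = 0.000583), Gstm2 at -0.67 ± 0.14 (adjusted p = 0.00115) and Ephx1, the microsomal epoxide hydrolase, at 0.35 ± 0.09 (adjusted p = 0.00875). Among NADPH suppliers Pgd, which follows G6pdx in that pathway, was higher by 0.39 ± 0.13, and of the efflux pumps Abcc2 was higher by 0.25 ± 0.09. Of the haem and iron genes Slc48a1 was higher by 0.22 ± 0.07 and Fth1 was lower by -0.31 ± 0.09, and Cbr3 (1.08 ± 0.34) and Ugdh (0.26 ± 0.08) were higher too. The calls for Ugdh, Cbr3, Abcc2 and Pgd each ended when certain single libraries were left out.

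In old livers of the second batch (10 Myc ruxolitinib against 4 mApple vehicle) 1 of 10 members passed, beside 10.9% of 13761 genes. Hmox1 had 8.53, 17.9 and 28.8 CPM in old Myc ruxolitinib livers, against 22.5, 24.9, 41.8 and 60.3 CPM in old mApple vehicle livers. In 7 of 10 Myc ruxolitinib livers it was below the lowest vehicle liver, and the difference was -1.08 ± 0.31 (0.472-fold, adjusted p = 0.0360). The call was lost without any 1 of libraries 1135, 1136, 1151, 1153 and 1155, with the estimate between -0.72 and -1.09 and adjusted p from 0.0521 to 0.183. In the single fit of all 58 libraries, which takes in the first batch, the difference of Hmox1 had the opposite sign and did not pass the threshold. Summed leukocyte markers ran from 113 to 217 CPM in old Myc ruxolitinib livers and from 167 to 262 CPM in old mApple vehicle livers, with a median difference of -0.58 over the 5 markers, none of which passed. Summed Kupffer cell and macrophage markers ran from 158 to 411 CPM in old Myc ruxolitinib livers and from 234 to 649 CPM in old mApple vehicle livers. Of the 5 endothelial markers 4 were lower (median -0.80), with summed levels from 66.2 to 179 CPM in old Myc ruxolitinib livers and from 170 to 237 CPM in old mApple vehicle livers. The part of these lists was not tested.

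Nqo1 in the same comparison had 8.14, 20.8 and 47.8 CPM in old Myc ruxolitinib livers and 7.19, 8.86, 10.3 and 13.7 CPM in old mApple vehicle livers. In 8 of 10 Myc ruxolitinib livers it was above every vehicle liver, yet the log2 difference of 1.06 ± 0.39 stayed short of the threshold in edgeR (adjusted p = 0.0934). It passed by DESeq2 and in the single fit of all 58 libraries, but not by limma voom. Of the other pathway genes 3 were higher and 1 lower of 47 tested, beside 6.52% higher and 4.35% lower over all genes. Gsta1 was higher by 2.13 ± 0.65 (adjusted p = 0.0460), Gsta2 by 1.37 ± 0.40 (adjusted p = 0.0406) and Cbr3 by 2.87 ± 0.87 (adjusted p = 0.0470), and each of these calls was lost on leaving out any 1 of at least 8 of the 14 libraries. Akr1b8 was lower by a difference of -1.16 ± 0.24 (adjusted p = 0.00992), at 0.919 to 2.42 CPM in old Myc ruxolitinib livers and 2.76 to 5.03 CPM in old mApple vehicle livers without overlap, and kept its call whichever library was left out. The number of all genes without overlap here was not counted. In the single fit of all 58 libraries, which takes in the first batch, the difference of Akr1b8 was -0.34 (adjusted p = 0.296).

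How the members moved together from liver to liver was measured over the 58 livers after the mean of each group and batch had been removed from log2(CPM + 1), with permutation within group and batch. Of the 45 pairs, 14 passed an adjusted p of 0.05 by Pearson's r, 11 positive and 3 negative, and 10 by Spearman's rho. The share of pairs of other genes that would pass was not computed, so the count is not read as particular to the members. The enzymes that reduce thioredoxin, sulfinic peroxiredoxin and glutathione formed the strongest links. Txnrd1 and Srxn1 had r = 0.66 and rho = 0.54 (two-sided permutation p = 1e-05, the smallest that 100000 draws can give, adjusted p = 0.000225). Their r was 0.72 in the first batch (n = 18), 0.63 in the second (n = 40) and 0.60 without the 2 livers farthest from the median of Txnrd1. Txnrd1 and Gsr had r = 0.65 and rho = 0.56 (adjusted permutation p = 0.000225), with 0.48 and 0.73 in the first and second batch and 0.54 without the 2 farthest livers.

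Nfe2l2 was linked with Gclc, at r = 0.61 and rho = 0.53 (adjusted permutation p = 0.0009), with 0.62 and 0.59 in the first and second batch and 0.50 without the 2 farthest livers. Both subunit genes of the glutathione enzyme, Gclc and Gclm, had r = 0.54 and rho = 0.52 (adjusted permutation p = 0.00108), with 0.59 and 0.51 by batch and 0.46 without the 2 farthest livers. Gclm ran against Hmox1 (r = -0.50, rho = -0.41, and r = -0.34 with adjusted permutation p = 0.0715 without libraries 860, 861, 864 and 865), Slc7a11 (r = -0.45, rho = -0.46) and Srxn1 (r = -0.43, rho = -0.48). With library totals in place of TMM scaling, 20 pairs passed, 19 of them positive, and of the negative pairs Gclm with Hmox1 had r = -0.25 (adjusted permutation p = 0.215) and Gclm with Srxn1 r = -0.28 (adjusted permutation p = 0.0694). Nqo1 and Txnrd1 had r = 0.43 and rho = 0.27, and the relation rested on 2 livers, with r = 0.28 (adjusted permutation p = 0.120) without libraries 1154 and 1158.

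**Figure D4:**
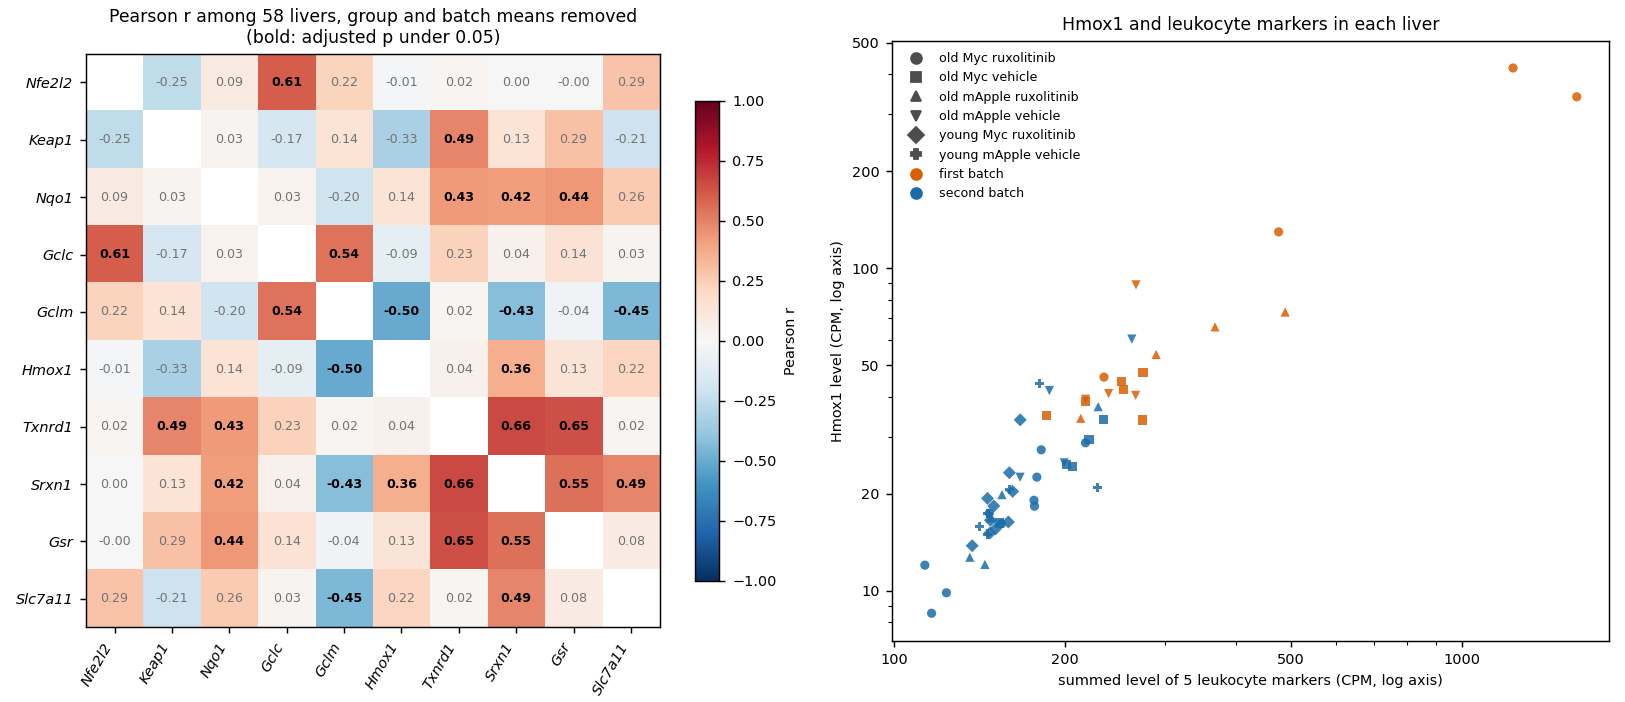
Left, Pearson's r between each pair of the 10 genes over 58 livers after removal of group and batch means; right, Hmox1 (CPM) against the summed CPM of 5 leukocyte markers per liver, both on log axes. The strongest positive pairs are Txnrd1 with Srxn1 (0.66) and with Gsr (0.65), Gclm is negative with Hmox1 (-0.50), and libraries 860 and 861 lie at the upper right of the second panel.

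Within the 35 Myc-virus livers, none of the 10 members followed the level of Myc by Pearson's r after adjustment over the 10 relations. Nfe2l2 had r = 0.42 (adjusted permutation p = 0.364) and rho = 0.56 (adjusted permutation p = 0.0245, and 0.102 without libraries 860, 861, 864 and 865), with r = 0.51 in the first batch (n = 10) and 0.24 in the second (n = 25). Without libraries 867 and 870, the 2 farthest from the median of Myc, Nfe2l2 had r = 0.585 (adjusted permutation p = 0.0922) and rho = 0.53 (adjusted permutation p = 0.0576). Gclc had r = 0.35 and rho = 0.44, and Nqo1 r = -0.03 and rho = -0.01.

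Among 14024 genes, those whose level from liver to liver was most like that of a member are given as a description, over the same 58 livers, which share libraries and depth. Nqo1 was most like Gstm3 (r = 0.71), Abcc4 (r = 0.69) and Prelid2 (r = 0.66). Txnrd1 was most like Cbr3 (r = 0.79), Ikbkg (r = 0.72) and Ugdh (r = 0.71). Gstm3, Abcc4, Cbr3 and Ugdh are on the list of other NRF2 pathway genes, and Gsr had Txnrd1 itself as its nearest gene (r = 0.65), before Tsku and Arpp19. Hmox1 was most like Laptm5, Ly9 and Nckap1l (r = 0.91 each), which are expressed in blood cells. Gclm was most like Slco1b2 (r = 0.83), with Nox4 also among its nearest genes, and Gclc was most like Hsdl2 (r = 0.79), Xk and Creg1. Srxn1 was nearest to Sprr1a and Krt8 (r = 0.75 each) and Ccdc120, Slc7a11 to Bmp8b and Nrg1 (r = 0.75 each) and Fndc10, Keap1 to Apba3 (r = 0.74), Pelo and Psmd4, and Nfe2l2 to Simc1 (r = 0.69), Cald1 and Hmgn5.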

How the data were processed

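PolyA RNA of 58 whole livers was sequenced. Per the file headers and the submitters' processing notes, the authors made the deposited expected counts (an estimated count of exon reads per gene) with STAR and HOMER on GRCm38 (mm10). Versions are not given in the sources used here. Each gene has 1 transcript, no strand setting is recorded, and values lie in steps of 0.5, of which 29.9% were not whole; they were rounded for tests. Total counts ran from 10676097 to 40982340, and intervals cover the spread between livers. Each SE was the size of the log2 difference over the square root of edgeR's F statistic. The 95% intervals reach 1.96 SE to either side and can be too narrow with few livers. For Nqo1 in old against young mApple vehicle livers the interval was 0.04 to 1.04, with an unadjusted edgeR p of 0.0564. Counts were scaled by TMM and tested with edgeR 4.0.16 (quasi-likelihood, limma 3.58.1, R 4.3.3) after a filter at a minimum count of 10, with a batch term where both batches entered, and p-values were adjusted over all genes tested, with a threshold of 0.05. CPM values are TMM-scaled, and RPKM divides them by transcript length. Correlations used a pseudocount of 1 and 100000 permutations. Alternatives were RLE scaling, DESeq2 1.42.0, limma voom with quality weights, a fit of all 58 libraries at once, either batch by itself, the filter or the batch term dropped, and leaving out libraries. The tests were checked on simulated data with known differences. Of 164 replicate pairs none held identical values. Named genes are the 10 members, up to 4 other pathway genes per comparison with the smallest p among those past the threshold, all of a pathway group with at most 5 past it, Myc, and the 3 most similar genes per member, of which 1 is not reported here. Members, pathway genes and marker lists were chosen with earlier results of these data known.

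Read in the file's coordinates (GRCm38, mm10), the counted transcripts are Nfe2l2 NM_010902 (chromosome 2, 75675513 to 75704663, minus strand), Keap1 NM_016679 (chromosome 9, 21229730 to 21239332, minus), Nqo1 NM_008706 (chromosome 8, 107388225 to 107403205, minus), Gclc NM_010295 (chromosome 9, 77754535 to 77794489, plus) and Gclm NM_008129 (chromosome 3, 122245557 to 122267215, plus). The others are Hmox1 NM_010442 (chromosome 8, 75093618 to 75100593, plus), Txnrd1 NM_001042513 (chromosome 10, 82859206 to 82897724, plus), Srxn1 NM_029688 (chromosome 2, 152105524 to 152111376, plus), Gsr NM_010344 (chromosome 8, 33653238 to 33698162, plus) and Slc7a11 NM_011990 (chromosome 3, 50364936 to 50443613, minus). Gclm overlaps Gm17494 on the opposite strand and the pseudogene Gm6061 on its own strand, so its counts are uncertain to that extent.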

Additional observations from a re-analysis of the deposited data

Results flagged for a closer look

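Each member's levels were checked in the 4 groups of 4 to 10 livers, both batches together, for a liver far from the others by Dixon's criterion. In 10 of 40 such sets a liver stood out. The criterion's nominal rate of about 1 in 20 assumes normally distributed values and separate sets. Levels here were CPM without a log scale, and the same livers recur across genes, so the count is not set against chance. Library 1134, a young mApple vehicle liver, stood above its group for Nfe2l2 (129 CPM), Gclc (1046 CPM) and Gclm (255 CPM). Library 865, an old mApple ruxolitinib liver, stood above its group for Srxn1 (243 CPM) and Slc7a11 (5.61 CPM), and library 864 of the same group stood below it for Gclc (187 CPM). Library 1119, a young Myc ruxolitinib liver, stood above its group for Hmox1 (33.9 CPM) and Srxn1 (75.5 CPM), and library 1121 of that group stood below it for Keap1 (45.8 CPM). Library 1129, a young mApple vehicle liver, stood above its group for Hmox1 (44.0 CPM). The old Myc groups, of 14 and 11 livers, were too large for this criterion and were not tested with it.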

How the results depend on the processing

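Of 4262 values of single genes recomputed, 4096 kept their side of the threshold, 150 fell short of it and 15 passed it. Direction was compared only where the main or the recomputed value passed the threshold, and 1 such value reversed. It was Hmox1 in Myc ruxolitinib against mApple vehicle old livers, at 0.31 (adjusted p = 0.578) in the single fit of all 58 libraries, which takes in the first batch. Changes of sign among values short of the threshold in both were not counted. The number of members called became 2 for ruxolitinib in old Myc livers with the first batch alone, 1 for Myc in old ruxolitinib livers in the single fit (Txnrd1), 2 for age in mApple vehicle livers by limma voom (Hmox1 and Srxn1), and in young livers, Myc ruxolitinib against mApple vehicle, 2 by limma voom, 0 without a filter and 0 in the single fit. In old livers the same comparison gave 2 by DESeq2 (Nqo1 and Hmox1) and 2 in the single fit (Nqo1 and Srxn1), and its change with age 1 by limma voom (Slc7a11). Keap1 lost its age call in Myc ruxolitinib livers in the single fit (adjusted p = 0.0663). Leaving out single libraries gave 4 to 4 members called for age in Myc ruxolitinib livers, 0 to 1 for age in mApple vehicle livers, for Myc in old vehicle and in old ruxolitinib livers and for Myc ruxolitinib in old livers, 0 to 3 for Myc ruxolitinib in young livers, and 0 to 0 for ruxolitinib in old mApple and old Myc livers and for both changes of response. Correlated pairs numbered 14, but 0 in the first batch alone and 9 without the 2 livers farthest on the x axis. Over all genes, calls were 53 against 142 by DESeq2, 26 with no batch term, 6 in the first batch alone, 11 in the second and 20 (without library 856) to 75 (without library 864) on leaving out single libraries for ruxolitinib in old mApple livers, 75 against 907 in the first batch alone, 9 in the second and 320 in the single fit for old Myc livers, 2544 against 732 in the first batch alone, 629 in the second and 1468 with no batch term for Myc in old vehicle livers, 2012 against 0 in the first batch alone and 1033 with no batch term for Myc in old ruxolitinib livers, 145 against 649 by DESeq2 and 1640 by limma voom for age in mApple vehicle livers (22 without library 1135 and 502 without library 1129), and 1496 against 3349 in the single fit and 2832 by limma voom for Myc ruxolitinib in old livers (539 without library 1135 to 1662 without library 1154). For the change of that difference with age they were 39 against 198 by DESeq2 and 597 by limma voom (3 without library 1135 to 78 without library 1138). Other pathway genes past the threshold were 10 against 20 by limma voom for Myc ruxolitinib in young livers, 4 against 10 by DESeq2 in old livers and 1 against 5 by DESeq2 for Myc in old ruxolitinib livers. Beyond construction, the causes were not tested. No paired analysis was possible because the replicate numbers are unique library numbers. Depth limits Slc7a11, which at a mean of 0.122 RPKM failed the filter on low counts in 2 comparisons.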
